A study of Oryza sativa with 2 samples.

Results

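The genes described here are COPT1, NAS3, VIT1.2, MT1B and MT2C of rice. Their products carry, bind or store copper and iron or, for NAS3, make a chelator of these metals. The genes were found by gene symbol or synonym among probe sets annotated to a single gene, with a leading Os dropped and letters matched as written. This gave 5 genes with 9 probe sets, of 17905 genes with such a probe set and 57258 rice probe sets in all. They were chosen by the log2 difference between the arrays in the comparison described below, so their own differences are a description and support nothing further.

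The study concerns the early-senescing rice mutant SA0420 and asked which transcripts differ when leaf tips yellow. RNA from leaves of rice recombinant inbred lines, lines fixed by inbreeding from a cross, was hybridised to 2 single-colour arrays. The yellow leaf tip array came from the mutant lines labelled F9Y in the vegetative stage, and the green leaf array from the normal green lines labelled F9G. The titles speak of leaves and the descriptions of leaf tips for both arrays, so the part of the leaf that was taken is not settled. No treatment is given for either group. The sources used here do not give the parents or the number of lines and plants behind each RNA. There was 1 array per group with no replicate, so no test was possible and every difference compares these arrays. The yellow array is from the F9Y lines and the green array from the F9G lines, so line and yellowing cannot be told apart. In RNA from leaf tissue, fewer cells of a type and less RNA per cell cannot be told apart either.

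Copper and iron are cofactors of photosynthesis and respiration, and as free ions they are harmful, so plant cells keep them bound. COPT proteins carry copper across membranes. Nicotianamine, made by nicotianamine synthases, chelates iron, copper and zinc for movement through the plant and is the precursor of the phytosiderophores of grasses. VIT proteins load iron into the vacuole, and metallothioneins are small proteins whose many cysteines bind metal ions. Yellowing leaves are known to export part of their metals to other organs.

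Values are deposited signal intensities on a linear scale. Differences are of log2 of the signal plus a pseudocount of 22.6, yellow leaf tip minus green leaf, centred on the median of the 28629 probe sets kept by a filter on mean signal, and folds are taken from these differences. All 9 member probe sets passed the filter. The highest of 42 bacterial control probe sets, which stand for background, read 56.9 for yellow leaf tips against 97.6 for green leaves. All 6 measured green leaf markers, among them RBCS, RCA and CAB2R, had mean signals far above these controls on both arrays. Their log2 differences ran from -0.75 for PSAH to 0.51 for PSAG, whose 2 probe sets disagreed (-0.13 and 1.16), while the 4 of RBCS spanned 1.15. The PSAG probe set at 1.16 was dim (228 against 94.1), with its green leaf signal inside the range of the bacterial controls. A dim probe set of RBCS had 70.1 against 187. The markers had a summed signal of 292896 against 376058. Of the seed, root and anther markers, 4 of 9 with a probe set were below the filter, while the root gene LSI1 had 762 against 1244, the seed gene GLUA-2 822 against 1186 and GLUB-4 22.3 against 186, where the yellow leaf tip signal of GLUB-4 was inside the range of the bacterial controls. As a sign of RNA quality, the ratio of 3′ to 5′ signal was 2.48 against 2.37 for actin, 2.74 against 2.53 for cyclophilin and 2.14 against 2.40 for GAPDH, yellow leaf tips first. The 3′ probe set of actin itself had a log2 difference of 0.87, that of cyclophilin 0.47 and that of GAPDH 0.36. The part of leaf markers and control transcripts in the results below was not tested.

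COPT1, NAS3, VIT1.2 and MT2C had lower signals in yellow leaf tips and MT1B had a higher one, each by more than 2-fold. As background, 3.18% of all 14697 kept genes were past this size on the lower side and 5.57% on the higher side, and 6.29% and 5.82% of the kept probe sets. These shares are given for scale, since the members were picked for their differences. From the lowest difference upwards COPT1 had rank 54, NAS3 rank 61, MT2C rank 62 and VIT1.2 rank 150 of the 14697 genes, and MT1B had rank 43 from the highest downwards. The log2 differences of COPT1, NAS3 and MT2C lay closer together than the 0.22 (SD) by which probe sets of 1 gene differed at such bright signals, so their order is not settled.

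**Figure D1:**
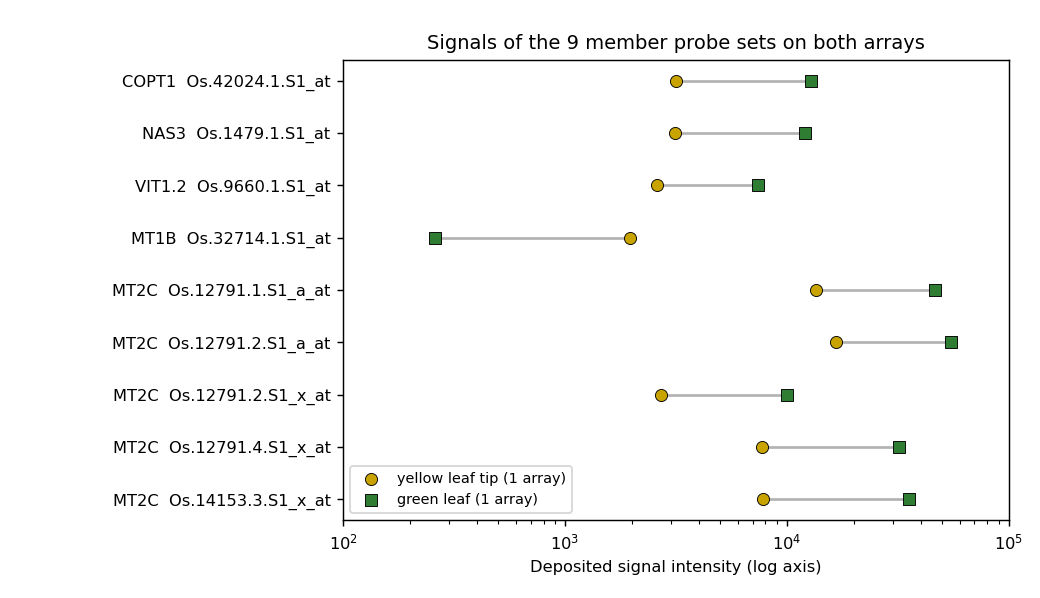
Deposited signal of each member probe set (log axis) in yellow leaf tips (circles) and green leaves (squares), with 1 array per group and no error bars. The 8 probe sets of COPT1, NAS3, VIT1.2 and MT2C lie to the right in green leaves, and that of MT1B lies to the right in yellow leaf tips.

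COPT1, a copper transporter of the plasma membrane, was read by the probe set Os.42024.1.S1_at of gene LOC4324610. It read 3177 in yellow leaf tips against 12820 in green leaves. The yellow leaf tip signal was thus 3.88-fold lower (log2 difference -1.95), and it still stood 55.9 times above the highest bacterial control of its array. Over the 9 other processing settings that could move it, the difference stayed between -2.02 and -1.92.

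Among the other COPT genes only COPT7 was above the filter, and it did not share this difference. COPT4 and COPT6 had no probe set. COPT7, also listed as COPT5.1, had 1398 against 1637 (-0.17). COPT2 (47.0 against 103) and COPT3 (19.0 against 78.4) were below the filter, with yellow leaf tip signals inside the range of the bacterial controls, so no fold is given for them. COPT3 is the next gene after COPT1 in the gene table, and the gene before it, LOC4324609, had 752 against 1019 (-0.38).

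Of the other measured genes of copper handling, 3 had signals higher by at least 2-fold in yellow leaf tips, and the rest were within 2-fold. SODCC.2, a cytosolic superoxide dismutase that holds copper and zinc, had 15245 against 3203, a fold of 4.90. SODCC.1, a second gene for this enzyme, had 12900 against 5277, a fold of 2.52. CCS, the chaperone that hands copper to superoxide dismutase, had 5850 against 1687, a fold of 3.56. These genes stood on the opposite side of COPT1, and each was read by 1 probe set.

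As background from Arabidopsis, copper shortage is known to raise COPT transporters and to lower copper/zinc superoxide dismutases and CCS. Copper status was not measured here. PETE, the gene of plastocyanin, the copper protein of photosynthetic electron transport, had 36565 against 44363 (-0.23). The copper ATPase genes HMA4, whose product stores copper in the vacuole, and HMA5, whose product loads it into the xylem, had 433 against 259 (0.75) and 211 against 242 (-0.13). Of the 8 measured genes of the copper list, 3 were higher by at least 2-fold, 1 was lower (COPT1) and 4 were within 2-fold, and 2 more were below the filter. Of all kept genes, 5.57% were higher and 3.18% lower by this size. Without COPT1, a member chosen for its difference, 3 of 7 genes were higher, 0 were lower and the median was 0.75. The median of the whole list was 0.31 beside 0.08 for all kept genes. It was -0.12 when no filter was applied, so no direction can be given for the list.

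NAS3, a nicotianamine synthase, was read by the probe set Os.1479.1.S1_at of gene LOC4344361. It read 3115 in yellow leaf tips against 12025 in green leaves, which is 3.71-fold lower in yellow leaf tips (log2 difference -1.89, and -1.96 to -1.86 over 9 other settings). The other nicotianamine synthases were dim on both arrays. NAS1 had 42.5 against 20.1 and NAS2 had 55.3 against 42.5, all inside the range of the bacterial controls. Of these 3 genes, NAS3 alone had a signal that could be compared.

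NAAT1, the nicotianamine aminotransferase that takes nicotianamine towards phytosiderophores, had 5474 against 10972 (-0.95), just under 2-fold, and it passed 2-fold without centring and when only genes above the 75th percentile were kept (-1.02), where the iron list had 4 lower genes. TOM1, which exports the phytosiderophore deoxymugineic acid, had 10879 against 6955 (0.69). The 2 probe sets of TOM2 disagreed in sign, with -0.13 and 0.56, so no direction can be given for it.

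VIT1.2, a vacuolar iron transporter also listed as VIT2, was read by the probe set Os.9660.1.S1_at of gene LOC4346978. It read 2598 in yellow leaf tips against 7420 in green leaves, which is 2.74-fold lower in yellow leaf tips (log2 difference -1.46, and -1.53 to -1.42 over 9 other settings). Its relative VIT1.1 had 798 against 1772 (-1.08), 2.11-fold lower. Both measured vacuolar iron transporter genes thus had lower signals, VIT1.2 by the larger fold.

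Most other genes of iron transport lay close to 0. The YSL genes, transporters of metals bound to nicotianamine or phytosiderophores, ran from -0.64 for YSL10 to 0.30 for YSL13 among the 9 that were kept. YSL16, a transporter of copper bound to nicotianamine, had 2859 against 3742 (-0.34). IRT1, the ferrous iron transporter of roots, had 263 against 343 (-0.31). The NRAMP genes of metal transport ran from -0.49 for NRAMP1 to 0.57 for NRAMP3. The 4 kept probe sets of NRAMP4 disagreed by 1.63, around a mean of -0.05. IDEF1 and IRO3, regulators of the response to iron shortage, had -0.26 and 0.28. Of 23 measured genes in the iron list, 3 stood past 2-fold on the lower side (NAS3, VIT1.2 and VIT1.1), none was higher and 20 were within 2-fold, while 10 were below the filter. Of the 23, 15 were below 0, as were 43.4% of all kept genes, and the median was -0.11 beside 0.08 for all kept genes. Without NAS3 and VIT1.2, members chosen for their differences, the median was -0.09 and 1 of 21 genes stood past 2-fold on the lower side. Of all kept genes, 3.18% stood past 2-fold on the lower side and 5.57% on the higher side.

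The zinc list, which holds no member, had a median of -0.57, lower than that of the iron list and beside 0.08 for all kept genes. ZIP2, of a family of zinc and iron transporters, had 266 against 869 (-1.58) and ZIP1 had 47.4 against 154, where the yellow leaf tip signal lay inside the range of the bacterial controls, so no size is given for it. ZIP5 had -0.83 and ZIP8 -0.64. The vacuolar zinc transporter gene MTP1 had -0.44, and the highest genes were MTP5 at 0.42 and MTP3 at 0.29. Of 10 measured genes, 2 stood past 2-fold on the lower side, where 3.18% of all kept genes stood, and none was higher. Of the 10, 8 were below 0, as were 43.4% of all kept genes, and 4 more genes were below the filter. ZIP1 is 1 of the 2 genes past 2-fold, and this count was 1 after loess, with the larger pseudocount and under the 75th percentile filter.

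**Figure D2:**
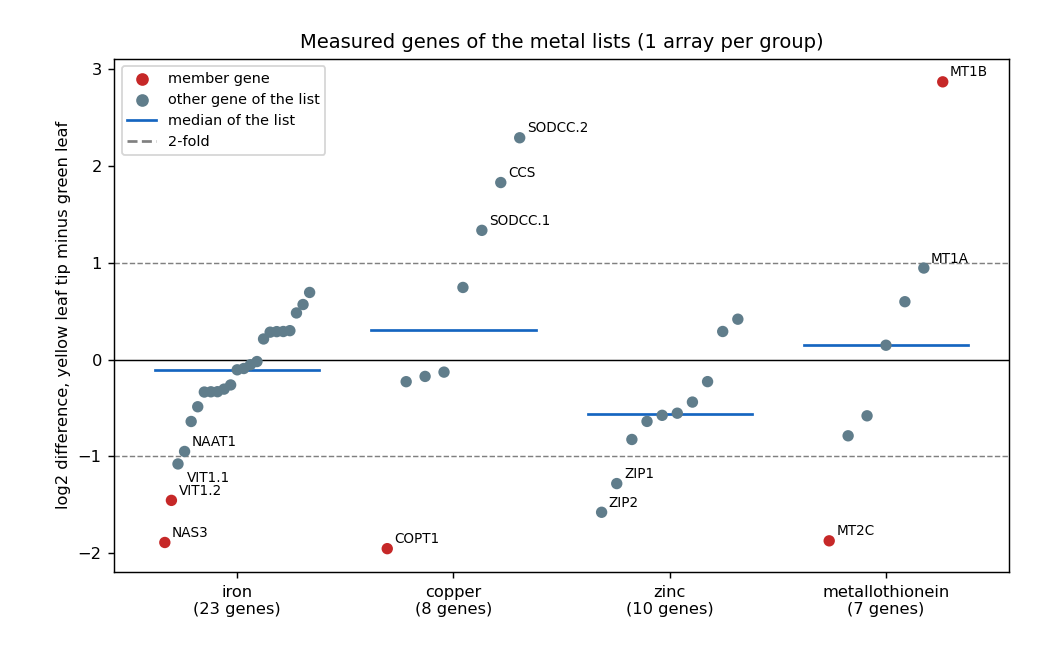
Log2 difference, yellow leaf tip minus green leaf, of each kept gene in the iron, copper, zinc and metallothionein lists, with members in red, the median of each list as a blue line and 2-fold as dashed lines. NAS3, COPT1 and MT2C are the lowest genes of their lists, MT1B is the highest of its list, and SODCC.2, CCS and SODCC.1 stand above 2-fold in the copper list.

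The metallothioneins held members at both ends. MT1B was read by the probe set Os.32714.1.S1_at of gene LOC4332487. It read 1972 in yellow leaf tips against 260 in green leaves, a fold of 7.32 towards yellow leaf tips (log2 difference 2.87). The green leaf signal was 2.66 times the highest bacterial control of that array, so it was the member signal nearest to background, and the difference ran from 2.61 with a larger pseudocount to 2.98 without one.

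MT2C, gene LOC4337596, was read by 5 probe sets. Os.12791.1.S1_a_at had 13527 in yellow leaf tips against 46520 in green leaves (-1.73). Os.12791.2.S1_a_at had 16669 against 55088 (-1.67). Both readings were lower in yellow leaf tips, and the ending _a_at marks probes shared by transcripts of 1 gene.

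The other 3 probe sets of MT2C end in _x_at, which marks probes that may also bind other transcripts. Os.12791.2.S1_x_at had 2694 against 10028 (-1.84). Os.12791.4.S1_x_at had 7757 against 31946 (-1.99), and Os.14153.3.S1_x_at had 7790 against 35637 (-2.14). All 5 were lower in yellow leaf tips by 3.19-fold to 4.41-fold. Their mean was -1.87 ± 0.19 (SD over 5 probe sets of the same RNA, which covers disagreement between probes only). They spanned 0.47, where the median span of the 16 genes with 5 kept probe sets was 0.87, and 6 of those genes, MT2C included, spanned no more than MT2C. Without the probe sets that end in _x_at or _s_at, a choice made after seeing the data, the difference of MT2C was -1.70.

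The remaining metallothionein genes lay between these. MT1A had 21618 against 11606 (0.95), just under 2-fold higher, and it passed 2-fold after loess (1.06) and quantile normalization (1.04). MT2B, the nearest relative of MT2C by name, had 36493 against 55889 on Os.12410.1.S1_a_at, 26265 against 49028 on Os.12410.1.S1_x_at and 32589 against 42426 on Os.12410.3.S1_x_at, that is, -0.56, -0.85 and -0.33. MT2B thus had the sign of MT2C at a smaller size on each of its kept probe sets, while the remaining one was dim (4.54 against 23.6).

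The 4 probe sets of MT2A disagreed by 1.83. Os.46398.1.S1_s_at had 46366 against 48932 (-0.03) and Os.35005.1.S1_at 444 against 116 (1.81), so the gene mean of 0.60 rests on probe sets that do not read alike. MT4A had 5020 against 4688 (0.15) and MT4C 260 against 482 (-0.79). Of the 7 measured metallothionein genes 1 was higher by at least 2-fold (MT1B), 1 was lower (MT2C) and 5 were within 2-fold. Of all kept genes, 5.57% were higher and 3.18% lower by this size. MT1B and MT2C are members chosen for their differences, and without them 0 of 5 genes were past 2-fold. The median of the 7 genes was 0.15, which turned to -0.03 with the brightest probe set of each gene, so no direction can be given for the family.

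**Figure D3:**
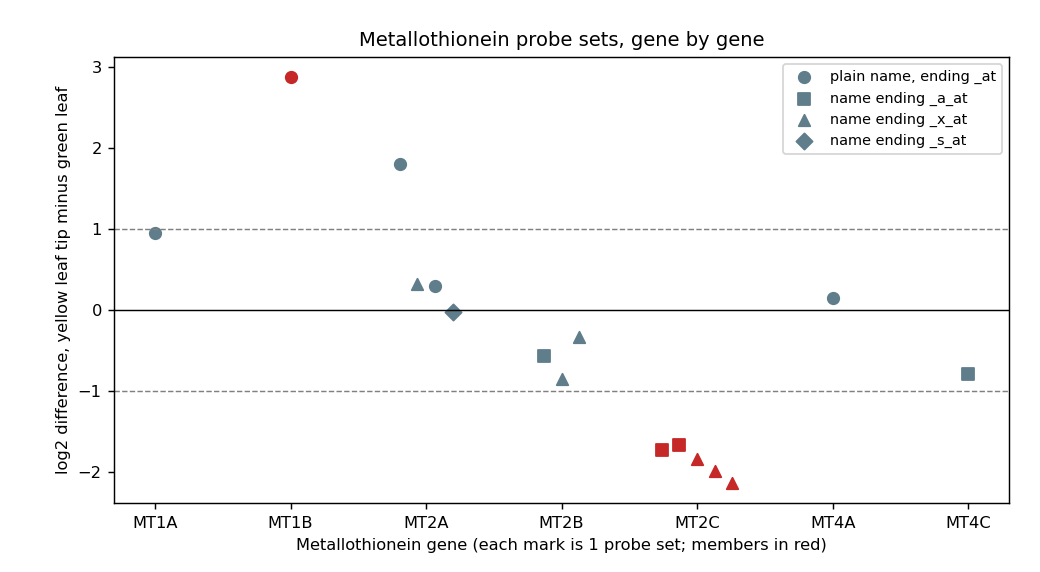
Log2 difference, yellow leaf tip minus green leaf, of each kept probe set of the 7 measured metallothionein genes, with marks by the ending of the probe set name, members in red and 2-fold as dashed lines. The 5 probe sets of MT2C lie together between -2.14 and -1.67, the single one of MT1B is at 2.87, and those of MT2A are spread over 1.83.

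Metallothionein names are used for more than 1 rice gene. With case ignored, the name OsMT1b also fits MT4A and OsMT2c also fits MT2B, which would make 7 genes in place of 5. Averaged over the probe sets of both genes, a choice made after seeing the data, MT1B would have 1.51 and MT2C -1.39. The signs stayed, and the sizes belong to the genes named here by their locus numbers.

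All 5 members kept their sign and stayed past 2-fold under each of the processing settings that gave them a value. For each of them 9 other settings could move the value. The choice of the brightest probe set leaves COPT1, NAS3, VIT1.2 and MT1B as they are, since each has 1 probe set, and no probe set of MT2C remained when names ending in _x_at, _s_at and _a_at were left out.

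**Figure D4:**
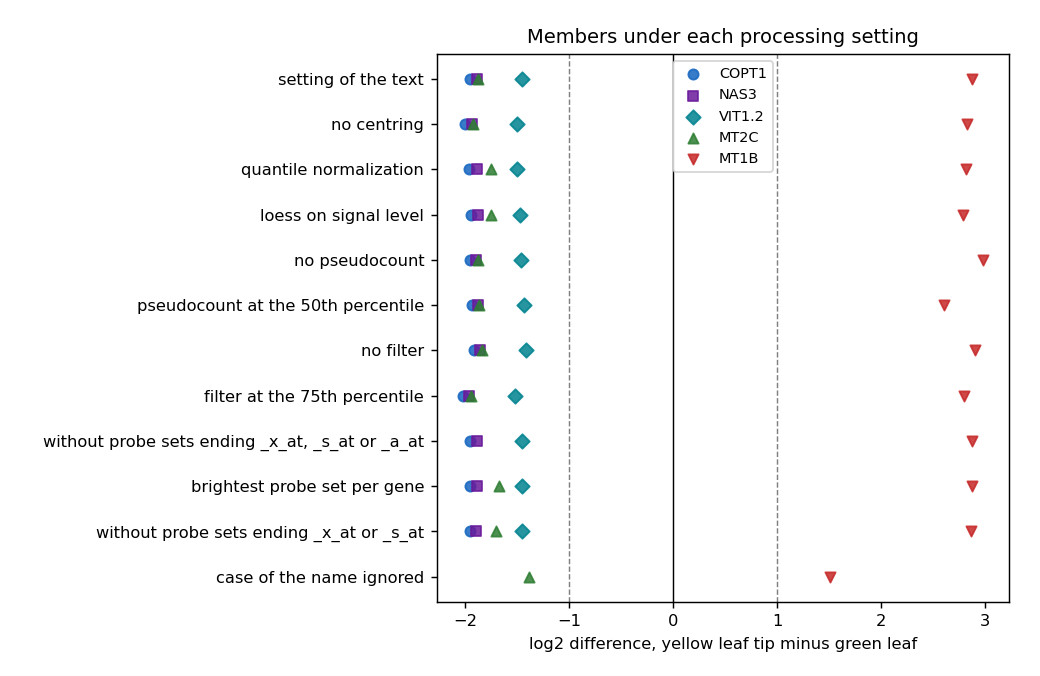
Log2 difference, yellow leaf tip minus green leaf, of the 5 members under the setting of the text and each other setting, with 2-fold as dashed lines. COPT1 stays between -2.02 and -1.92 and VIT1.2 between -1.53 and -1.42, and the values of MT1B and MT2C nearest to 0, 1.51 and -1.39, are those with the case of the name ignored, where another gene joins each.

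Among kept genes with a name, the gene with the nearest pair of log2 signals to COPT1 was NAS3, and the nearest to NAS3 was COPT1, at a distance of 0.10. For MT1B it was SGR (1725 against 304), at a distance of 0.34. VIT1.2 was nearest to D53-L (2638 against 6253, distance 0.25), and MT2C had no close one, IPP standing at 0.82. These distances cover 2 arrays only, and signals of different probe sets also differ through their probes.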

How the data were processed

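The submitters deposited 1 signal intensity per probe set and array, on a linear scale, by software that the sources used here do not name. Per the labels' protocols, total RNA from an RNeasy plant kit was turned into biotinylated cRNA. The deposited intensity had a mean of 500.1 on each array with the lowest and highest 2% left out. Of 57381 probe sets, 123 controls were left out. A pseudocount of 22.6 (25th percentile of all values) was added before log2, probe sets with a mean signal of at least 86.0 (the median) were kept, and a shift of -0.05 was taken out. A gene's value is the mean over its kept probe sets. The platform annotation gave 1 gene for 22436 probe sets, several for 95 and none for 34727, and all 17905 genes were found in the RefSeq table of assembly ASM3414082v1, used for names and neighbours only. Lists were matched by symbol or synonym, and 3 accidental matches (PC, PPO and RSs3) were left out after values were seen. The number of arrays limits the precision, and the spread between probe sets (0.46, SD over 2215 genes) covers probes only. Named genes are the members, their relatives, the genes of each list past 2-fold or among its 2 highest and 2 lowest, and the nearest named gene of each member. Further genes that mark the range of a family were picked after values were seen. Members and lists were chosen with earlier results of these data known. The calculation, in Python 3.11.15 with pandas 2.3.3 and statsmodels 0.14.6, was tested on simulated data. Alternatives changed centring, normalization, pseudocount, filter, probe sets and size threshold.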

Additional observations from a re-analysis of the deposited data

How the results depend on the processing

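The member genes kept their direction and stayed past 2-fold under every alternative that gave a value, and the values of 1.51 for MT1B and -1.39 for MT2C with the case of the name ignored come from adding another gene. Counts of probe sets, 1665 higher and 1800 lower, were 1100 and 863 with the pseudocount at the 50th percentile, 5333 and 5478 without a filter, 582 and 433 under a 75th percentile filter, and 312 and 261 at a log2 difference of 2. Their balance depended on the scaling, with 1936 higher and 1323 lower after loess, 1785 and 1568 after quantile normalization, and 1515 and 2021 without centring. The iron median was -0.21 after quantile normalization, -0.26 by the brightest probe set of each gene, -0.23 without probe sets ending _x_at, _s_at or _a_at and -0.20 without those ending _x_at or _s_at. Without a filter 1 iron gene was higher and 5 were lower, and at a difference of 2 there were 0 lower. The copper median was 0.51 under the 75th percentile filter, -0.12 without a filter and -0.13 with the genes matched as PC and PPO, and 2 copper genes were lower without a filter. At a difference of 2, 1 copper gene was higher and 0 were lower. The zinc median was -0.40 without a filter, where 1 zinc gene was higher. The number of lower zinc genes was 1 after loess, 1 under the larger pseudocount and 1 under the 75th percentile filter, and 0 at a difference of 2. The metallothionein median was 1.003 without probe sets ending _x_at, _s_at or _a_at, with 2 genes higher and 0 lower, and -0.028 when each gene was read by its brightest probe set. After quantile normalization, after loess and without probe sets ending _x_at or _s_at, 2 metallothioneins were higher, and at a difference of 2 there were 0 lower. The filters changed the number of genes measured in the iron, copper and zinc lists, the 75th percentile filter also among the metallothioneins, and leaving out names ending _x_at, _s_at or _a_at left 4 of 7 metallothioneins and 22 of 23 iron genes. The brightest probe set and the choice without names ending _x_at or _s_at left the number of genes in each list as it was. For the other changes the cause was not tested. No paired analysis was possible because each group has 1 array. Depth does not apply to arrays, and dim genes such as NAS1, NAS2, COPT2 and COPT3 could not be compared above background.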

Other observations

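Genes that supply the substrate of nicotianamine synthase, S-adenosylmethionine, did not share the lower signal of NAS3. They were chosen after values were seen. SAMS2, an S-adenosylmethionine synthetase gene, had 3152 against 1511 on the 1 of its 2 probe sets that passed the filter. This was a fold of 2.14 higher in yellow leaf tips, and SAMS had 12481 against 11763 (0.14). The methionine salvage genes MTK1 and ARD4 had log2 differences of -0.40 and 0.31. The 2 probe sets of IDI2, also of methionine salvage, disagreed in sign, with -0.39 and 0.4. So did those of SAMDC, which draws the same substrate into polyamines, with -0.26 on the brighter and 0.30 on the dimmer probe set. No direction can be given for IDI2 and SAMDC. Of these 6 genes, 1 was higher by at least 2-fold, as were 5.57% of all kept genes, and none was lower.

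Further genes of iron and copper proteins, also chosen after values were seen, were mostly within 2-fold. The gene listed as ferredoxin, an iron-sulphur electron carrier, had 30125 against 41049 (-0.39, with a span of 0.06 over 4 probe sets). The haem oxygenase genes HO1 and HO2 had 0.48 and -0.42. SPL9, a transcription factor gene listed with them and not that of an iron or copper protein, had 2539 against 3813 (-0.53). Among laccases, which are copper oxidases, LAC10 had 699 against 276 (1.32) and LAC7 2213 against 4551 (-0.98, and -1.05 after quantile normalization). SODA, the superoxide dismutase with manganese, had -0.21 on 2 probe sets that differed by 0.89, where SODCC.1 and SODCC.2 had 1.34 and 2.29.

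LOC4337595, the gene before MT2C in the gene table, read 14305 in yellow leaf tips against 3283 in green leaves, a log2 difference of 2.17 against -1.87 for MT2C. The measured neighbours of the other members, LOC4344360 beside NAS3 (-0.45), LOC4346979 beside VIT1.2 (0.77) and PDIL5-1 beside MT1B (-0.05), were within 2-fold.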
